A study of Homo sapiens with 72 samples.

Results

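This report describes 10 genes that encode protein tyrosine phosphatases of lymphocytes, a partner of one of them, and the related UBASH3 enzymes, as seen through 3 histone marks in B cell leukemia and lymphoma lines. The genes are PTPN7, PTPN6, PTPN22, PTPN1, PTPN2, PTPRC, PTPRCAP, PTPRJ, UBASH3A and UBASH3B. They are 10 of the 20007 protein-coding genes of GENCODE 44 and were chosen by name, with earlier results of the same libraries known, and which measured values weighed in that choice is not recorded. Differences given for them below are therefore descriptions, and no value is offered as independent support for another. The lines were Raji, from a Burkitt lymphoma, and NALM6 and REH, both from B cell precursor acute leukemia, each grown untreated or overnight with 1 nM bryostatin, an agent that activates protein kinase C. H3K4me2, H3K4me3 and H3K27me3 were profiled by Cut&Tag, in which an antibody to the mark directs a transposase to cut and tag the DNA nearby, with 3 libraries for each of the 18 combinations of line, mark and treatment. Each line stands for a single tumor, and nothing in the labels says whether replicates came from separate cultures, so p-values measure only the spread between these libraries. Each library is a bulk measurement, in which a mark carried by fewer cells and a weaker mark in every cell cannot be told apart.

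Antigen receptor signaling in B cells is set by the balance of tyrosine kinases and tyrosine phosphatases. CD45, the product of PTPRC, and CD148, the product of PTPRJ, are transmembrane phosphatases that remove the inhibitory phosphate of SRC family kinases, while SHP-1, the product of PTPN6, is drawn by its SH2 domains to the phosphorylated tails of inhibitory receptors such as CD22. UBASH3A and UBASH3B belong to the histidine phosphatase family, and the UBASH3B product removes phosphate from ZAP70 and SYK. H3K4me3 marks the start regions of active genes, H3K4me2 marks both starts and enhancers, and H3K27me3 is laid down by Polycomb complexes over silent genes.

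The stretches just before the annotated starts are shown so that starts with and without H3K4me3 can be set beside the CpG dinucleotides they hold. The sequences are from RefSeq (GRCh38.p14), 5′ to 3′ in the direction of the gene, cut to the part of the 250 bases before the start that overlaps no annotated exon, with CpG dinucleotides in capitals.
PTPN1 (chr20:50510133-50510320, plus strand): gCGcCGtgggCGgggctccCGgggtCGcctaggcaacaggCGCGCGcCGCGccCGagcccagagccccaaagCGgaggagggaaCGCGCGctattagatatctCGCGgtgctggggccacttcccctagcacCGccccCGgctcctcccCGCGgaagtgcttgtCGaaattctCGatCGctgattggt
UBASH3B (chr11:122655472-122655721, plus strand): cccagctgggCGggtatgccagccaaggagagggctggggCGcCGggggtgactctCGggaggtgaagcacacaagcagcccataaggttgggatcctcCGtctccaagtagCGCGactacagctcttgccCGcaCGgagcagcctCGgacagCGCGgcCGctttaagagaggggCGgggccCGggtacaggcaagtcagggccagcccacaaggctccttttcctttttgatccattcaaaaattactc
PTPN7 (chr1:202159992-202160239, minus strand): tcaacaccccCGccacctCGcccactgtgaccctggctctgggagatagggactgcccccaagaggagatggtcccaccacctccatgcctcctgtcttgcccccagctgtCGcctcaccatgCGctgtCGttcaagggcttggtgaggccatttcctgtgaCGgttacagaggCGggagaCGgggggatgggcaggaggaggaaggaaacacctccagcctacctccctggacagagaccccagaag
PTPN6, upstream start (chr12:6946327-6946467, plus strand): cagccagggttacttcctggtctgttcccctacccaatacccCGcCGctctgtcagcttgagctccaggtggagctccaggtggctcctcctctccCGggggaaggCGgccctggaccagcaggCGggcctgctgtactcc
PTPN6, downstream start (chr12:6951106-6951261, plus strand): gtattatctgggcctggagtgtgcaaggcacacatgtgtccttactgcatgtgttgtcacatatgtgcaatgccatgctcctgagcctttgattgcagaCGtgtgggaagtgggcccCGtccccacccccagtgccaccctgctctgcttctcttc
PTPN22 (chr1:113871754-113871962, minus strand): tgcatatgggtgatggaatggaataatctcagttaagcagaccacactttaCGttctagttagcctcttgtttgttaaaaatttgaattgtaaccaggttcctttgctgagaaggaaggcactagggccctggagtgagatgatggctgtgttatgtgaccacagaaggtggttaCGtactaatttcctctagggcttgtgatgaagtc
PTPRC (chr1:198638790-198638967, plus strand): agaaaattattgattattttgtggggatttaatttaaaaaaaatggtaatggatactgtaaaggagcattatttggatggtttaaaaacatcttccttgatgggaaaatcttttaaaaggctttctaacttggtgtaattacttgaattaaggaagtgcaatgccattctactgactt

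These stretches held 24 CpG for PTPN1, 15 for UBASH3B, 8 for PTPN7, 5 and 2 for the upstream and downstream starts of PTPN6, 2 for PTPN22 and 0 for PTPRC, in stretches of 141 to 250 bases. Over the full 250 bases, all 34943 RefSeq windows had a median of 11 CpG (quartiles 3 and 23), and the window of PTPN1 with 29 lay above the upper quartile and those of PTPRC and PTPN2 with 1 each below the lower one. The PTPN2 window (chr18:12840963-12841212) lies inside the gene, away from its main cluster of starts, and carried H3K4me3 in 0 of 18 libraries. An H3K4me3 peak lay over the PTPN1 window in 6 Raji, 4 NALM6 and 6 REH libraries, and over the UBASH3B window in all 18. The PTPN7 window carried H3K4me3 in 6 Raji, 3 NALM6 and 0 REH libraries. The PTPN22 window carried it in 4 Raji libraries and the PTPRC window in 4 Raji libraries and 1 REH library. The count of CpG did not order the starts by themselves, since the downstream PTPN6 start held H3K4me3 in 6, 6 and 6 libraries of Raji, NALM6 and REH and the upstream start, richer in CpG, in 6, 1 and 0. The GC box GGGCGG, searched on both strands, was found in 5 of the 10 windows of these genes and in 42.5% of all windows. The ETS core CCGGAA was in 1 window, that of PTPN1 (14.5% of all), and the AP-1 site TGANTCA (6.59% of all), the cyclic AMP response element TGACGTCA (1.63% of all) and TATAAA (10.8% of all) were in none. Entries for 7 of the 10 genes were in the table, and PTPRCAP, PTPRJ and UBASH3A were without one.

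The deposited peaks were called in each of the 54 libraries by itself, and the depth recovered for 48 of them was 5.12 to 47.9 M mapped reads (median 18.8 M). The 6 libraries of NALM6 replicate 1 carried another scaling, and their depth is unknown. Bryostatin libraries of Raji H3K4me2 were deeper, with 15.6 to 18.8 M reads against 6.70 to 13.9 M untreated, while the order was turned for Raji H3K4me3, with 13.5 to 27.3 M against 20.1 to 47.9 M. Numbers of H3K27me3 peaks ran from 590 to 78673 per NALM6 library, from 819 to 101702 per Raji library and from 17141 to 48483 per REH library. That mark is therefore given only as presence and covered length, and its absence in a Raji or NALM6 library can follow from few peaks. Of 6 B lineage markers, 6 had an H3K4me3 start peak in each Raji library and 4 to 6 in each NALM6 or REH library, including PAX5 and EBF1 throughout. Of 5 precursor B markers, REH libraries held 4 each, NALM6 libraries 3 to 5, and Raji libraries 1 (RAG1). Raji libraries held 5 or 6 of 6 mature or germinal center B markers, and NALM6 and REH libraries 1 or 2. T cell, NK cell and myeloid markers had 0 to 2 start peaks of a list in any library, and CD3E, KLRD1 and CD14 had none.

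A start peak was counted when it overlapped the 1 kb on either side of any annotated transcript start of a gene. Genes with an H3K4me3 start peak in 6 of 6 libraries numbered 7 of the 10 in Raji, 3 in NALM6 and 5 in REH, against 49.4%, 23.2% and 41.1% of all protein-coding genes. For H3K4me2 these numbers were 7, 6 and 7, against 44.2%, 20.6% and 48.9%. PTPN6, PTPN2 and UBASH3B had both H3K4 marks at a start in all 18 libraries of each mark. UBASH3A had an H3K4me3 start peak in none, and PTPRC and PTPN22 had neither H3K4 mark at a start in any NALM6 library. H3K27me3 start peaks were in at least 1 Raji library for 7 genes (70.9% of all genes), in NALM6 for 2 (28.2%) and in REH for 3 (19.8%). In 6 of 6 libraries of a line that mark was called at 1 of the 10 genes in REH, PTPN7, and at 0 in Raji and NALM6. Over all protein-coding genes these shares were 9.29% in REH, 1.24% in Raji and 0.67% in NALM6, so 1 of 10 in REH is near the share of all genes.

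**Figure D1:**
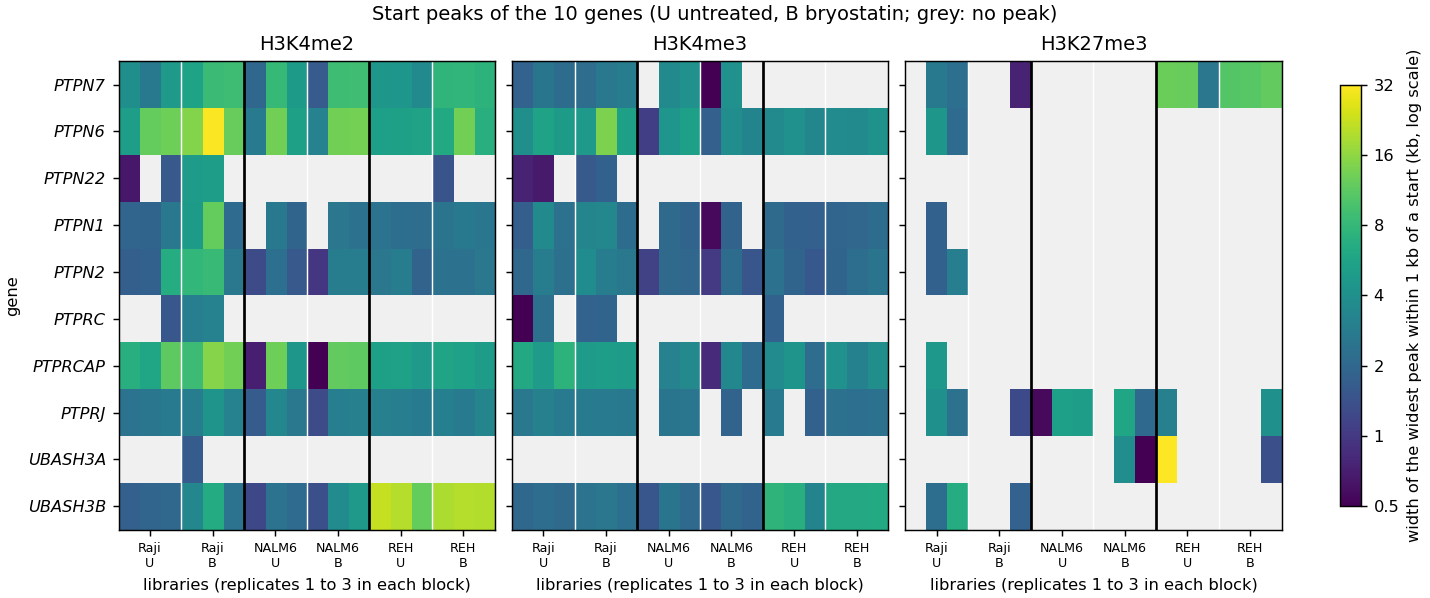
Width in kb (log color scale) of the widest peak within 1 kb of a start of each of the 10 genes, with 1 column per library and blocks of 3 replicates for untreated (U) and bryostatin (B) cells of each line; grey marks no peak. UBASH3B had its widest H3K4me2 peaks in REH (12 to 22.2 kb), and PTPN7 had H3K27me3 but no H3K4me3 at its start in the 6 REH libraries.

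To compare signal, peaks that overlapped across the libraries of a comparison were joined into regions, and the total signal of a region in a library is given as a multiple of that library's median region. A value of 1 is thus the typical region of the mark in that library. Differences were fitted on the log2 scale with limma over all regions called in every library of the comparison, with Benjamini-Hochberg adjustment and a threshold of 0.05. In REH, bryostatin changed H3K4me2 in 157 of 10791 regions (1.45%; 153 higher, 4 lower), and of 7 of these genes with a tested start region 1 was higher, PTPN7. In Raji, H3K4me3 was higher in 14 of 9040 regions (0.155%) and lower in 0, and of 7 genes 2 were higher, PTPN6 and UBASH3B. In REH, H3K4me3 changed in 121 of 7238 regions (1.67%; 59 higher, 62 lower), and of 5 genes 1 was higher, PTPN6. With the replicate number as a block, which pairs the libraries in these 3 sets, the counts over all regions were 305 (266 higher, 39 lower), 132 (96 higher, 36 lower) and 202 (89 higher, 113 lower). limma called 0 of 9316 regions for Raji H3K4me2 (0%; 626 at an unadjusted p under 0.05), 0 of 4128 for NALM6 H3K4me2 (0%; 56 unadjusted) and 0 of 3838 for NALM6 H3K4me3 (0%; 7 unadjusted), and so none of the 7, 6 and 3 genes tested there. The same genes are read in Raji and REH below one by one, since the shares over all regions are small and the genes were chosen with results known.

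**Figure D2:**
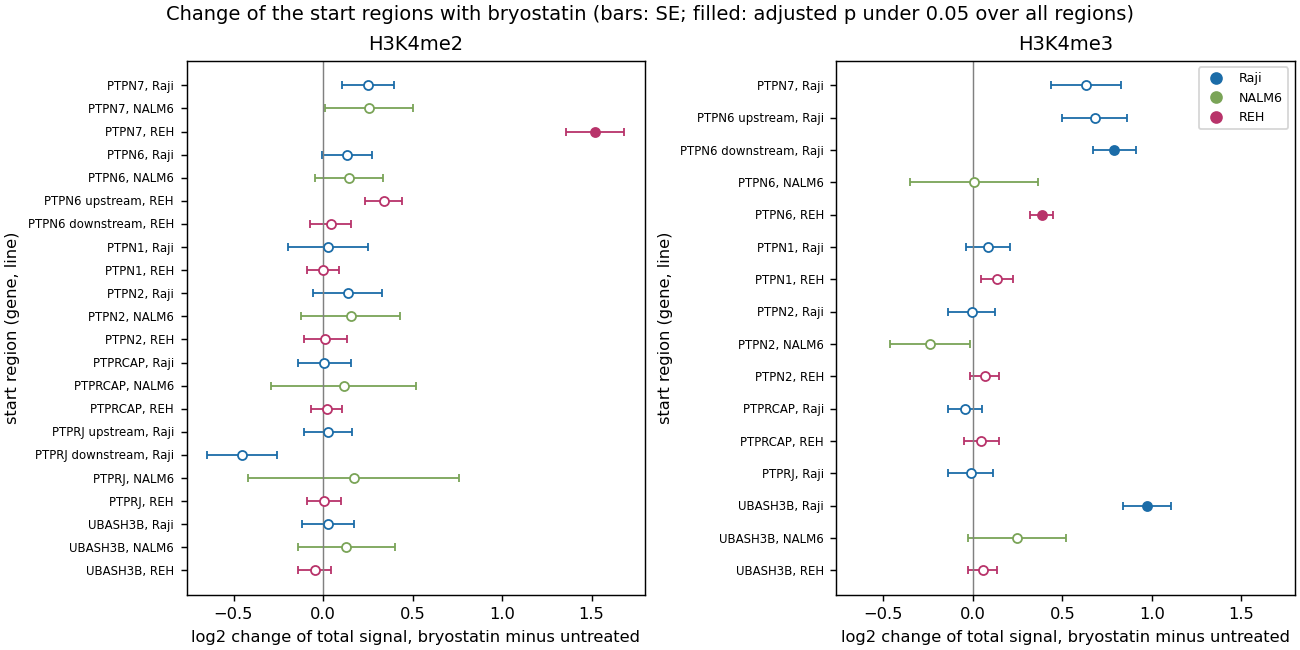
Log2 change of total signal with bryostatin (bryostatin minus untreated, bars SE, 3 against 3 libraries) at each start region called in all 6 libraries of a line and mark; filled points passed an adjusted p of 0.05 over all regions. The filled points are PTPN7 in REH for H3K4me2 (1.52) and PTPN6 in Raji (0.79), PTPN6 in REH (0.38) and UBASH3B in Raji (0.97) for H3K4me3; PTPN22, PTPRC and UBASH3A had no such start region.

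PTPN7 encodes a cytosolic phosphatase of hematopoietic cells that acts on MAP kinases. It lies on chr1:202147013-202161588 (minus strand, hg38), 14.6 kb long. Untreated REH libraries had an H3K4me2 start region of 0.777, 0.560 and 0.476 times the median region (chr1:202158641-202166680), and bryostatin libraries had 1.76, 1.96 and 1.42. The groups did not overlap, each treated library standing higher than every untreated one. The change was 1.52 ± 0.16 on the log2 scale (SE), 2.87-fold, with an adjusted p of 0.00030 by limma. The called length went from 6.48, 4.42 and 3.61 kb to 7.54, 7.76 and 7.31 kb, and the mean signal per called base from 87.8, 88.9 and 87.3 RPKM to 160, 166 and 140 RPKM. Both were higher in each treated library, and the change in mean signal per base was 0.94 with an adjusted p of 0.0725. REH H3K4me2 libraries held 13.7 to 18.8 M reads untreated and 18.2 to 22.8 M with bryostatin, and the part of depth in the difference was not tested. The call held in 12 of 13 alternative fits, all those that leave out 1 library among them (adjusted p 1.8e-05 to 0.0039).

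In the other lines the PTPN7 start already stood higher before treatment and did not pass the test. Raji H3K4me2 was 1.97, 2.29 and 2.17 untreated and 2.36, 2.33 and 3.01 with bryostatin (0.25 ± 0.15, adjusted p 0.73). NALM6 H3K4me2 was 1.94, 3.01 and 3.48 untreated and 3.32, 3.13 and 3.32 with bryostatin (0.26 ± 0.25, adjusted p 1.0). The difference between the changes in Raji and REH was -1.28 ± 0.24, with an adjusted p of 0.128 (0.0702 with the replicate block), so PTPN7 was not among the 2 of 7267 H3K4me2 regions (0.0275%) that passed the test of that difference. Raji H3K4me3 at the start was 0.234, 0.340 and 0.328 untreated and 0.412, 0.535 and 0.439 with bryostatin, higher in each treated library than in any untreated one, at 0.63 ± 0.19 with an adjusted p of 0.64 (0.051 with the replicate block).

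**Figure D3:**
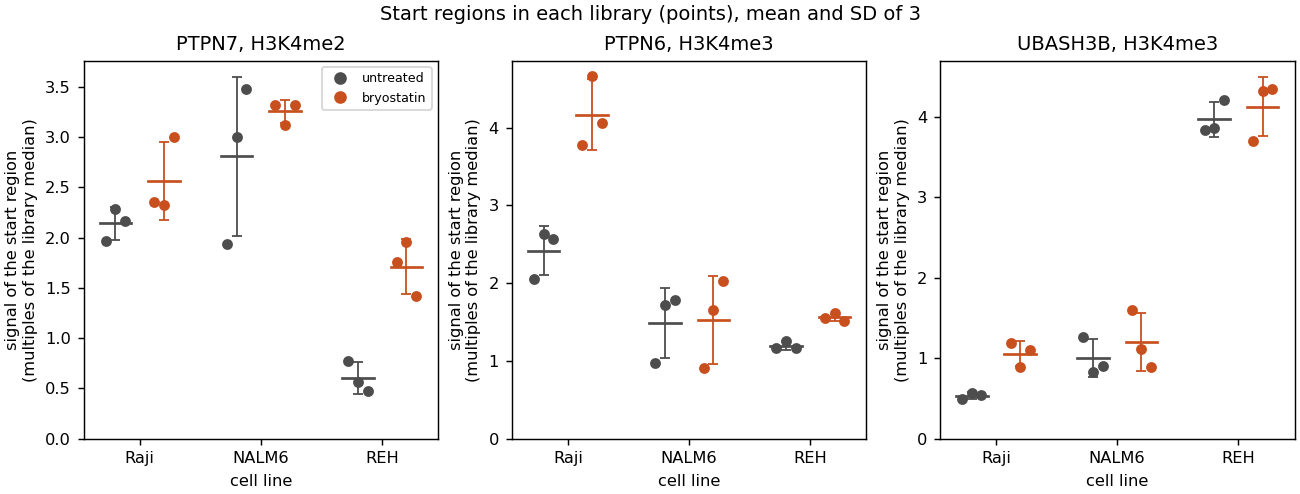
Total signal of 3 start regions in each library (points) as multiples of the library's median region, with the mean (line) and SD (bars) of 3 libraries, by line and treatment. PTPN7 H3K4me2 in REH, PTPN6 H3K4me3 in Raji and REH, and UBASH3B H3K4me3 in Raji were higher in all bryostatin libraries than in all untreated ones, whereas UBASH3B in REH stood near 4 with and without bryostatin.

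The marks at PTPN7 also differed between untreated lines. Over the region shared by Raji and REH (chr1:202158731-202163570), H3K4me2 was 1.67, 1.66 and 1.73 in Raji and 0.491, 0.558 and 0.471 in REH, 3.34-fold apart (1.74 ± 0.13, adjusted p 2.2e-07), and 1.51 by mean signal per base. NALM6 H3K4me2 was 2.19, 3.28 and 3.83 against 0.603, 0.429 and 0.357 in REH (2.74 ± 0.28, adjusted p 0.0019), and without centring on the library median this difference was 1.27 with an adjusted p of 0.64. H3K4me3 peaks at the start were present in 6 of 6 Raji libraries, with widths of 1.85 to 2.85 kb, and in 0 of 6 REH libraries. That pattern was shared with 335 of 20007 protein-coding genes (1.67%). In NALM6 the H3K4me3 peak was present in 4 of 6 libraries, missing from untreated replicate 1 and from bryostatin replicate 3.

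H3K27me3 was called within 1 kb of a PTPN7 start in every REH library, with peaks of 12.6, 12.2 and 2.59 kb untreated and 10.6, 10.8 and 11.7 kb with bryostatin. Together these peaks reached from 10.7 kb upstream of the gene's 5′ end to 1.84 kb inside it, and those of untreated replicate 3 and bryostatin replicate 1 ended before the 5′ end. H3K27me3 and H3K4me2 were thus both called at a start without H3K4me3. H3K4me2 and H3K27me3 in 6 of 6 REH libraries with H3K4me3 in 0 was found at 100 of 20007 genes (0.5%). In NALM6 no H3K27me3 peak touched a PTPN7 start, and 2 of 6 libraries had one upstream, and in Raji 3 of 6 libraries had a peak of 0.76 to 2.67 kb at the start.

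**Figure D4:**
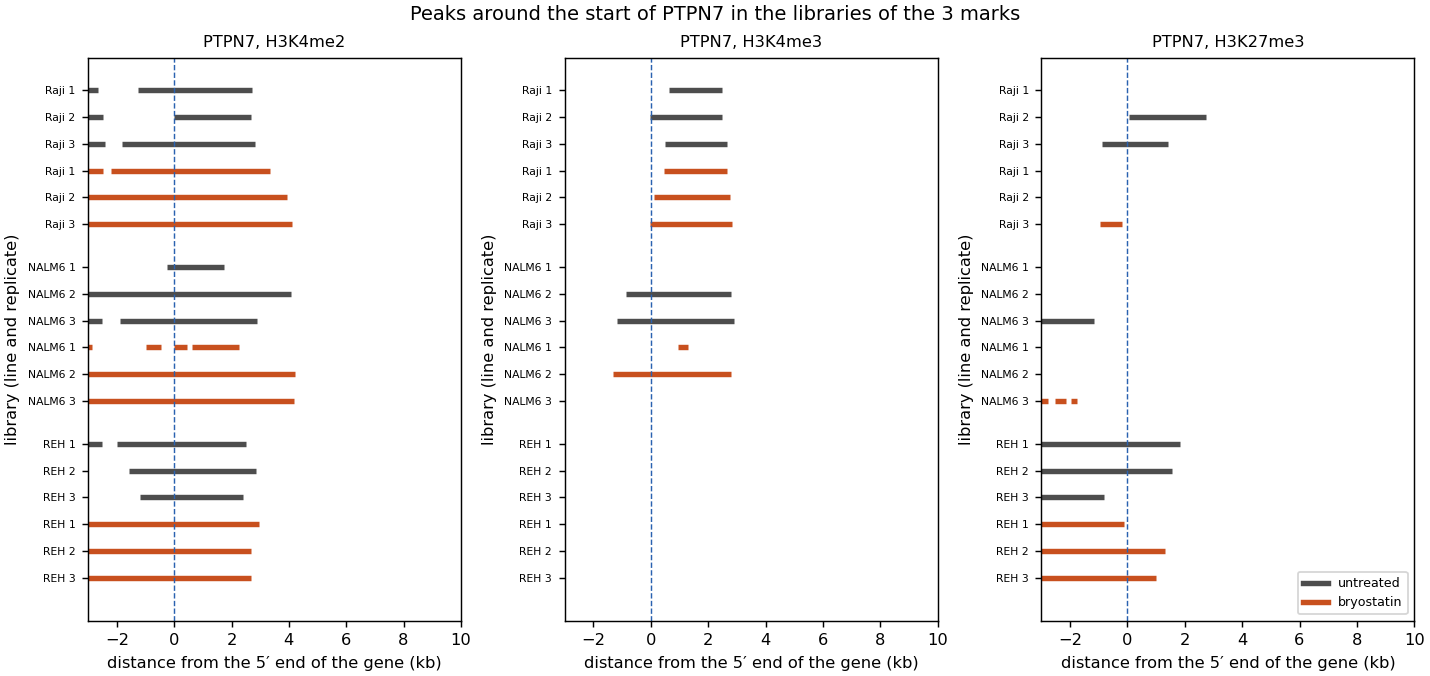
Peaks (bars) of the 3 marks from 3 kb before to 10 kb after the 5′ end of PTPN7, against distance in kb in the direction of transcription, with 1 row per library. The H3K4me3 panel is empty at the start in the 6 REH rows, where H3K27me3 comes within 1 kb of a start.

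PTPN6 lies on chr12:6946468-6961316 (plus strand), 14.8 kb long, and its 18 annotated starts fall in 3 clusters, at the 5′ end, at 4.79 to 4.97 kb and at 12.9 to 13.1 kb. The cluster at 4.79 to 4.97 kb, with 10 starts, was under an H3K4me3 peak in 18 of 18 libraries. The cluster at the 5′ end was under one in 6 Raji, 1 NALM6 and 0 REH libraries. The most downstream cluster was under H3K4me2 in 18 of 18 libraries.

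With bryostatin, H3K4me3 over the downstream starts rose in Raji and in REH. The Raji region (chr12:6950191-6964280) was 2.06, 2.63 and 2.56 untreated and 3.78, 4.67 and 4.06 with bryostatin, without overlap, a change of 0.79 ± 0.12 (1.73-fold, adjusted p 0.045 by limma, 0.00039 with the replicate block). Called lengths were 4.66, 5.47 and 8.32 kb untreated and 6.27, 14 and 5.3 kb treated, and mean signals 288, 572 and 341 RPKM against 678, 384 and 866 RPKM. This call lay close to the threshold and held in 3 of 13 alternative fits. It was lost without any 1 library other than untreated replicate 2, at changes of 0.68 to 0.86 and adjusted p of 0.049 to 0.25. The REH region (chr12:6950291-6954520) was 1.17, 1.26 and 1.16 untreated and 1.56, 1.61 and 1.52 with bryostatin, a change of 0.38 ± 0.06 (1.31-fold, adjusted p 0.0081) that held in 8 of 13 alternative fits and was lost without bryostatin replicate 1 (adjusted p 0.057) or 2 (0.075). Its called lengths were 3.37 to 4.12 kb untreated and 3.63 to 4.20 kb treated, and its mean signal went from 472, 423 and 418 RPKM to 591, 618 and 504 RPKM, so that the PTPN6 peak of REH was taller at a like length. NALM6 stood at 0.974, 1.72 and 1.78 untreated and 0.905, 1.65 and 2.02 with bryostatin (0.01 ± 0.36). The change in Raji minus that in REH was 0.41 ± 0.15 with an adjusted p of 0.94 (0.080 with the block), so the responses of the 2 lines were not shown to differ.

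The region over the upstream start of PTPN6 also holds a start of C12orf57. In Raji the joined H3K4me3 peaks covered starts of both genes, and their parts cannot be separated, whereas in REH they lay at the C12orf57 start and ended more than 1 kb before the PTPN6 5′ end. In Raji its H3K4me3 was 0.338, 0.277 and 0.255 untreated and 0.386, 0.535 and 0.475 with bryostatin (0.68 ± 0.18, adjusted p 0.49). Between untreated lines, H3K4me2 over this region was 3.03, 3.20 and 2.95 in Raji and 0.781, 0.959 and 0.829 in REH (1.84 ± 0.12, adjusted p 6.5e-08), whereas H3K4me3 was lower in Raji, at 0.267, 0.225 and 0.205 against 0.354, 0.471 and 0.443 (-0.86 ± 0.18, adjusted p 0.0026). Since no REH peak reached a PTPN6 start there, this lower value is not one of PTPN6. At the downstream starts H3K4me3 was higher in Raji, at 1.58, 2.13 and 1.98 against 1.17, 1.26 and 1.16 (0.66 ± 0.11, adjusted p 0.00091), a call that held in 8 of 11 alternative fits and was lost by maximum signal (0.35, adjusted p 0.22), by mean signal per base (0.51, adjusted p 0.050) and without centring (0.48, adjusted p 0.31). H3K4me2 over the downstream starts differed by 0.14 (adjusted p 0.37), and by -0.52 (adjusted p 0.041) when mean signal per base was used. H3K4me2 peaks at PTPN6 starts were 5.11, 12.1 and 12.7 kb wide in untreated Raji and 14.8, 31.1 and 12.3 kb wide with bryostatin, and 5.22 to 13.2 kb wide in REH. The peak of 31.1 kb (chr12:6942301-6973440) was longer than the gene and also covered starts of C12orf57, EMG1 and PHB2, so its width is not that of PTPN6 alone.

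PTPN22 encodes a phosphatase of SRC family kinases that binds the kinase CSK. It lies on chr1:113813811-113871753 (minus strand). Its start carried H3K4me3 in Raji alone of the 3 lines, at 0.74, 0.68 and 0 kb untreated and 1.6, 1.83 and 0 kb with bryostatin, so that replicate 3 had no peak in either state. H3K4me2 at the start was 0.65, 0 and 1.6 kb untreated and 4.87, 5.05 and 0 kb with bryostatin in Raji, and 1 REH library of 6 had a peak, of 1.47 kb. No start region was called in 6 of 6 libraries of a line, and PTPN22 therefore had no tested start value.

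PTPN1 and PTPN2 encode widely expressed phosphatases that act on JAK kinases. At PTPN1 (chr20:50510321-50585241, plus strand) H3K4me3 in REH was 0.583, 0.537 and 0.514 untreated and 0.619, 0.602 and 0.570 with bryostatin (0.13 ± 0.09, adjusted p 0.66). Raji H3K4me3 at PTPN1 was 0.891, 1.17 and 1.02 untreated and 1.01, 1.16 and 1.08 with bryostatin (0.08 ± 0.12, adjusted p 0.97). Treated and untreated libraries overlapped, and the log2 changes at the tested start regions of PTPN1 and PTPN2 lay between -0.24 and 0.15.

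Untreated Raji was above REH at PTPN1, with H3K4me2 of 2.82, 2.00 and 2.28 against 1.03, 1.01 and 0.945 (1.24 ± 0.14, adjusted p 7.7e-06) and H3K4me3 of 0.702, 0.945 and 0.821 against 0.584, 0.537 and 0.514 (0.59 ± 0.13, adjusted p 0.0038). The PTPN1 call for H3K4me3 held in 7 of 10 alternative fits and was lost by maximum signal (0.46), by mean signal per base (0.41) and without centring (0.40), at adjusted p of up to 0.514. At PTPN2 (chr18:12785478-12929643, minus strand) the peaks of both H3K4 marks lay in the gene record's interior, over a cluster of 10 starts 45.3 to 45.9 kb from its 5′ end, in 18 of 18 libraries of each mark. PTPN2 H3K4me2 was 1.62, 1.11 and 1.93 in Raji and 1.05, 0.772 and 0.953 in REH (0.73 ± 0.19, adjusted p 0.0064), a call that held in 8 of 11 alternative fits and was lost by maximum signal (0.21, adjusted p 0.43), by mean signal per base (-0.21, adjusted p 0.46) and without centring (0.47, adjusted p 0.19). H3K4me3 at PTPN2 was 0.14 apart on the log2 scale with an adjusted p of 0.22.

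PTPRC, the CD45 gene, lies on chr1:198638457-198757476 (plus strand). In NALM6 it had no peak of any mark within the gene and its 3 kb flanks, and no library of any line had H3K27me3 there. In Raji H3K4me3 start peaks were 0.48, 2.33 and 0 kb wide untreated and 1.84, 1.92 and 0 kb with bryostatin, and a further intronic H3K4me3 region at 2.86 to 5.99 kb was called in 5 of 6 libraries. An intronic H3K4me2 region at 11.1 to 14.9 kb was called in 6 of 6 Raji libraries, at 0.450, 0.471 and 0.621 untreated and 0.776, 0.897 and 0.450 with bryostatin (0.42 ± 0.26, adjusted p 0.73). Raji H3K4me2 peaks covered 5.41, 0.71 and 8.5 kb of PTPRC untreated and 26.7, 36.6 and 1.05 kb with bryostatin, so that replicates 1 and 2 of the treated group stood far above replicate 3. In REH an intronic H3K4me2 region at 39.6 to 42.8 kb was called in 5 of 6 libraries, at 0.383 to 0.518, and the start had an H3K4me3 peak in 1 library.

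PTPRCAP encodes a transmembrane protein that associates with CD45 and is not itself a phosphatase. It spans 2.17 kb on chr11:67435510-67437682 (minus strand) between RPS6KB2 and CORO1B. In Raji the joined peaks of both H3K4 marks also covered starts of these neighbors, as did H3K4me2 in NALM6 and REH, whereas H3K4me3 covered the CORO1B start alone in REH and neither in NALM6. Raji H3K4me3 there was 2.49, 2.51 and 2.40 untreated and REH 0.771, 0.861 and 0.761, 3.09-fold apart (1.63 ± 0.08, adjusted p 5.3e-07), over 6.12, 5.02 and 7.34 kb in Raji and 3.69, 4.28 and 2.2 kb in REH, and 0.94 by mean signal per base. H3K4me2 was 4.75, 5.75 and 5.18 against 2.61, 2.99 and 3.14 (0.84 ± 0.11, adjusted p 4.8e-05), a call that held in 9 of 11 alternative fits and was lost by maximum signal (0.16, adjusted p 0.455) and by mean signal per base (0.20, adjusted p 0.40). With bryostatin the Raji H3K4me3 region stood at 3.16, 3.10 and 2.98 untreated and 2.71, 3.22 and 3.05 treated (-0.04 ± 0.09, adjusted p 0.99), with overlapping groups.

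PTPRJ lies on chr11:47980425-48170839 (plus strand). Its start carried H3K4me2 in 18 of 18 libraries and H3K4me3 in 6 of 6 Raji, 3 of 6 NALM6 and 5 of 6 REH libraries. Raji H3K4me3 was 1.15, 1.51 and 1.54 untreated and 1.36, 1.33 and 1.45 with bryostatin (-0.01 ± 0.13, adjusted p 1.0). PTPRJ H3K4me2 was level between untreated Raji and REH (-0.05, adjusted p 0.75). Raji libraries also had intronic H3K4me2 regions, at 30.5 to 35.1 kb and 35.5 to 42.8 kb, in 6 of 6 libraries, and peaks covered 14.4, 6.45 and 29.2 kb of the gene untreated and 28.8, 37.5 and 16.7 kb with bryostatin. A region at an internal start 61.5 to 64.9 kb from the 5′ end was 0.628, 0.634 and 0.619 untreated and 0.375, 0.494 and 0.521 with bryostatin, lower in every treated library, at -0.45 ± 0.19 with an adjusted p of 0.72. H3K27me3 at PTPRJ starts was called in 3 Raji, 5 NALM6 and 2 REH libraries of 6 each.

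UBASH3A, known mainly from T cells, lies on chr21:42403447-42447684 (plus strand). It had an H3K4me2 start peak in 1 library, bryostatin replicate 1 of Raji (1.68 kb). Numbers of H3K27me3 peaks varied far more among Raji and NALM6 libraries than among REH ones, and their part in the next values was not tested. In REH H3K27me3 peaks covered 44.3, 38.6 and 32.2 kb of the gene and its flanks untreated and 36.3, 37.9 and 40.8 kb with bryostatin, against at most 22.1 kb in a NALM6 library and 15.6 kb in a Raji library. Inside that domain REH had an H3K4me2 region at 20.4 to 23.8 kb (chr21:42423811-42427220), over an annotated exon, in 6 of 6 libraries, at 0.605, 0.601 and 0.357 untreated and 0.737, 0.755 and 0.547 with bryostatin (0.41 ± 0.19, adjusted p 0.51).

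UBASH3B lies on chr11:122655722-122814473 (plus strand), 159 kb long, and had the widest H3K4me2 start peak of the 10 genes in each REH library. Its H3K4me2 start peak was 22.2, 20.1 and 12 kb wide in untreated REH libraries and 19.3, 20.1 and 20.0 kb with bryostatin, against 1.78, 1.93 and 2.04 kb in untreated Raji and 1.24, 2.45 and 2.14 kb in untreated NALM6. In each REH library it ranked from 13th to 42nd among the 9874 to 12488 genes with an H3K4me2 start peak. The median width in untreated REH was 10.4 times that in Raji, a ratio that 4 of 8292 genes reached (0.0482%, UBASH3B among them). H3K4me3 peaks were 7.51, 6.78 and 3.29 kb wide in untreated REH and 2.03, 2.21 and 2.12 kb in untreated Raji, a ratio of 3.2 that 11 of 7832 genes reached (0.14%).

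Untreated H3K4me3 at the UBASH3B start was 3.83, 3.85 and 4.20 in REH and 0.387, 0.463 and 0.440 in Raji, 9.24-fold higher in REH (-3.21 ± 0.09 for Raji minus REH, adjusted p 3.8e-08), and -1.45 by mean signal per base. H3K4me2 was 6.19, 6.90 and 6.46 in REH and 1.11, 1.21 and 1.07 in Raji, 5.77-fold higher in REH (-2.53 ± 0.11, adjusted p 1.5e-09) and -1.43 by maximum signal, yet by mean signal per base the sign was the opposite, at 0.46 with an adjusted p of 0.068. Against NALM6, REH was higher for H3K4me2 (4.82, 5.31 and 4.90 against 1.58, 0.795 and 1.10, -2.17 ± 0.25, adjusted p 0.0026) and for H3K4me3 (3.32, 3.34 and 3.57 against 1.65, 0.995 and 1.08, -1.49 ± 0.21, adjusted p 0.0091, and 0.053 to 0.067 without any 1 REH library). By mean signal per base the H3K4me2 difference to NALM6 was also turned, at 0.31 with an adjusted p of 0.43, and the H3K4me3 difference was -0.23.

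With bryostatin, H3K4me3 at the UBASH3B start rose in Raji, the line with the lowest signal there, and did not pass the test in REH or NALM6. Raji (chr11:122654841-122657420) was 0.491, 0.571 and 0.547 untreated and 1.19, 0.889 and 1.10 with bryostatin, without overlap, a change of 0.97 ± 0.14 (1.96-fold, adjusted p 0.028 by limma, 0.0039 with the replicate block). Called lengths were 2.03 to 2.21 kb untreated and 2.27 to 2.58 kb treated, and mean signals 158, 307 and 285 RPKM against 546, 398 and 547 RPKM. The call held in 3 of 12 alternative fits and was lost without any 1 library other than untreated replicate 2, at changes of 0.88 to 1.09 and adjusted p of 0.049 to 0.19. REH was 3.83, 3.85 and 4.21 untreated and 3.70, 4.32 and 4.35 with bryostatin (0.05 ± 0.08, adjusted p 0.88), and NALM6 was 1.27, 0.835 and 0.897 untreated and 1.60, 1.12 and 0.888 with bryostatin (0.25 ± 0.27, adjusted p 1.0). The change in Raji minus that in REH was 0.93 ± 0.14 with an adjusted p of 0.037, and this start was 1 of 5 regions of 6447 that passed (0.0776%; 27 regions with the replicate block). Of 5 genes tested for that difference, UBASH3B alone passed, and it did so in 5 of 15 alternative fits, at 0.85 to 1.03 and adjusted p of 0.016 to 0.13 with 1 library left out. It was lost without any 1 REH library and without replicate 3 of either Raji group. The bryostatin libraries of Raji H3K4me3 were on the whole shallower than the untreated ones, as given above, and the part of depth was not tested. H3K4me2 over the Raji start stayed at 1.16, 1.28 and 1.10 untreated and 1.11, 1.24 and 1.24 treated (0.03 ± 0.14, adjusted p 0.97).

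Beyond the start, REH had 3 intronic H3K4me2 regions of UBASH3B in 6 of 6 libraries, at 37.4 to 44 kb, 58.4 to 63.1 kb and 85.5 to 94.1 kb from the 5′ end, and a further one at 98.0 to 102 kb in 4 of 6. The region at 85.5 to 94.1 kb was 1.11, 1.05 and 0.683 untreated and 1.31, 1.35 and 1.06 with bryostatin (0.41 ± 0.16), with an adjusted p of 0.36 that became 0.0356 with the replicate block. The regions at 37.4 to 44 kb and 58.4 to 63.1 kb changed by 0.33 ± 0.13 and 0.30 ± 0.17 (adjusted p 0.39 and 0.60). Peaks at these places were also called in Raji and NALM6 libraries. At 40.6 to 43.7 kb 4 of 6 Raji libraries had one, and at 59.6 to 62.7 kb 5 of 6 NALM6 libraries.

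**Figure D5:**
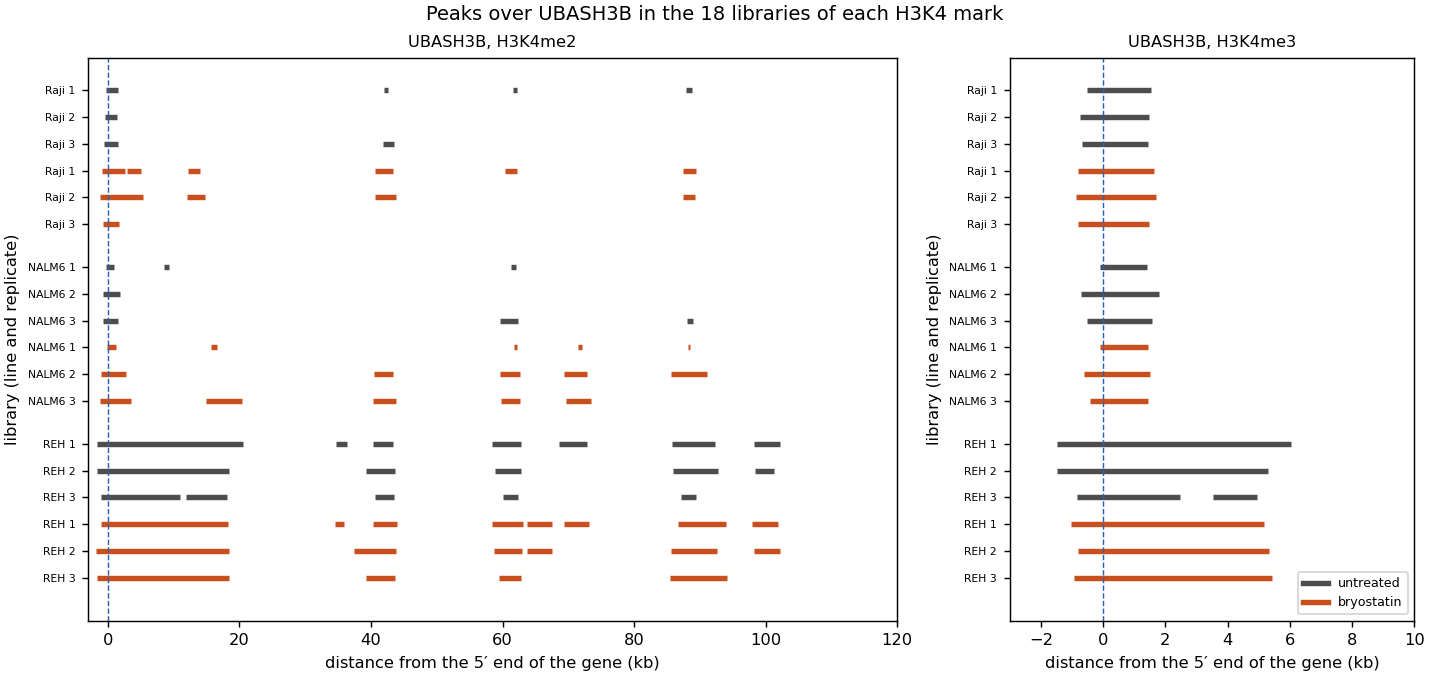
Peaks (bars) of H3K4me2 and H3K4me3 over UBASH3B against distance in kb from the gene's 5′ end, with 1 row per library. The REH rows carry a start domain of about 20 kb for H3K4me2 with further intronic peaks between 37.4 and 102 kb, and longer H3K4me3 start peaks than the rows of Raji and NALM6.

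Over whole genes with 3 kb flanks, the summed peak signal of the H3K4 marks gave 60 sets of gene, line and mark, 54 of them with a peak in at least 1 library. In 3 sets the bryostatin libraries did not overlap the untreated ones, where 11.1% of 49865 sets over all protein-coding genes did so in either direction. Those 49865 sets were limited to genes with a peak in all 6 libraries of a line and mark. That limit was not set for the 54, so the shares are not over like sets. PTPN7 H3K4me2 in REH was 1.52, 1.74 and 1.60 untreated and 2.38, 2.28 and 2.22 with bryostatin (all treated libraries were higher for 5.16% of 10652 genes). PTPN6 H3K4me3 in Raji was 2.39, 2.91 and 2.82 untreated and 4.17, 5.16 and 4.53 with bryostatin, and UBASH3B H3K4me3 in Raji was the third (5.36% of 10555 genes). The exact two-sided permutation test gave p = 0.1 for each of these, the smallest that 3 libraries against 3 allow.

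Between untreated lines the 10 genes were counted against many differing regions. Raji and REH differed in 3744 of 7999 H3K4me2 regions (46.8%; 1902 higher in Raji, 1842 lower) and in 3455 of 6729 H3K4me3 regions (51.3%; 1604 higher, 1851 lower). Without centring the splits were 696 higher and 2129 lower for H3K4me2 and 200 higher and 895 lower for H3K4me3. Of 7 genes tested for H3K4me2, 5 had a region higher in Raji (PTPN7, PTPN6, PTPN1, PTPN2 and PTPRCAP) and 1 was lower (UBASH3B). The PTPN6 call was at the upstream region, shared with a start of C12orf57, and the region over its downstream starts did not pass. The PTPRCAP region also covered starts of its neighbors. Of 5 tested for H3K4me3, PTPN6, PTPN1 and PTPRCAP had a region higher in Raji, and UBASH3B was lower. NALM6 and REH differed in 561 of 4902 H3K4me2 regions (11.4%), with PTPN7 higher and UBASH3B lower of 6 genes tested, and in 364 of 5089 H3K4me3 regions (7.15%), with UBASH3B lower of 3 tested.

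Other genes of the pathway were counted from 4 lists. Among 12 further non-receptor phosphatases, 18 receptor phosphatases and 27 kinases, adaptors and other proteins the enzymes act on, no start region passed the limma test for bryostatin in any line or H3K4 mark, and 0 to 3 genes of a list did so in a line and mark at an unadjusted p under 0.05. REH H3K4me2 was tested at 7, 7 and 25 genes of these lists, and Raji H3K4me3 at 6, 3 and 20. Of 20 inhibitory receptors and related proteins, none passed in the other sets, with 0 to 2 genes at an unadjusted p under 0.05. In REH 2 were tested for H3K4me3 and both were higher, against 1.67% of all 7238 regions called in either direction. They were CD22, by 0.62 ± 0.09 (adjusted p 0.0048), and SIRPA, by 0.40 ± 0.09 (adjusted p 0.041). The list was drawn up from receptors that recruit SHP-1, so that trait of the 2 genes is not a result. In untreated Raji against REH, 9 of 20 tested genes of the kinase list were higher for H3K4me2 and 1 lower, led by FGR (3.06), LYN (1.63) and SYK (1.25). By mean signal per base FGR stood at 1.11, LYN at -0.02 and SYK at 0.215. For H3K4me3, 4 of 16 genes of that list were higher and 5 lower. The medians over the tested genes were 0.00 and -0.05, and over all regions the calls were split 1902 higher to 1842 lower and 1604 to 1851. Among receptor phosphatases PTPRE was lower in Raji for H3K4me2, at regions of -1.40 and -1.33, and for H3K4me3 (-2.05). By mean signal per base these H3K4me2 regions stood at -0.84 and 0.24. PTPRA was higher for H3K4me2 (0.54, and -0.13 by mean signal per base) and H3K4me3 (0.34). Of 3 genes tested for H3K4me2 and 2 for H3K4me3, 1 was higher and 1 lower for each mark. Of the further non-receptor phosphatases, 4 of 5 had a higher H3K4me2 region and 0 a lower one. For H3K4me3, 4 of 6 had a higher and 1 a lower region. Among inhibitory receptors CD22 was lower for H3K4me2 (-1.15) at chr19:35318031-35321460. It was higher for H3K4me3 (1.41) at chr19:35327421-35334220, a separate region. A region shared by CD72 and SIT1 was higher for H3K4me2 (1.32) and H3K4me3 (1.91). Of 4 genes of that list tested for H3K4me2, 3 had a higher and 2 a lower region, and all 3 tested for H3K4me3 were higher. In NALM6 against REH, 2 of 17 tested genes of the kinase list were higher for H3K4me2 and 0 lower, against 11.4% of all regions called. These were ZAP70 (2.33, adjusted p 0.0044) and STAT3 (0.60, adjusted p 0.032). Without centring 0 regions passed in this comparison.

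On a separate measure of H3K4me3 start signal, not that of the joined regions above, PTPRJ had the largest range between untreated lines. It was 2.55 on the scale of log2 (signal + 0.1), where the other genes ranged from 0 to 1.99. UBASH3B ranged by 1.50 on this measure, whereas its joined H3K4me3 start region differed by -3.21 for Raji minus REH. The 1.99 is that of PTPN7, whose signal was 0 in every REH library, so that this value is set by the added constant. The low end of the PTPRJ range was untreated NALM6, at 0, 0.131 and 0.184. The 0 is that of replicate 1, with its other scaling. The constant thus enters the PTPRJ range and the choice of that gene as well. Of all 20007 protein-coding genes, those whose H3K4me3 start signal ran most like that of PTPRJ over the 18 H3K4me3 libraries were SLC45A3 (Pearson's r = 0.978), RBM12B (0.976) and CFAP36 (0.975). These are descriptions over libraries that share line, depth and scaling.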

How the data were processed

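The deposited files list SEACR peaks of each library. Per the labels and methods, the authors converted reads with bcl2fastq, trimmed them with Trim Galore, aligned them to hg38 with Bowtie2, made coverage signal in RPKM and called stringent peaks library by library, so each peak carries a total and a maximum signal (versions are not given in the sources used here). The authors also used DESeq2 on reads, which was not repeated because the deposited signal is not counts. The 18 IgG libraries were not used here. The mark called H3K27me3 in the labels is also written H3K27me2 in the study's text. NALM6 replicate 1 (6 libraries) follows another scaling, with peaks off the 10 bp bins of the others, and centring removes a constant factor but not a difference in peak calling. Depth came from the smallest step of the signal, and at least 99.8% of peak heights were whole multiples within 0.02.

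Genes came from GENCODE 44 on the same hg38 build. Peaks overlapping by at least 1 bp were merged, the log2 total signal was shifted in each library so that the median over the tested regions, those with a peak in every library of a comparison, was 0, and limma 3.58.1 (R 4.3.3, eBayes with trend) was fitted over all of these regions with Benjamini-Hochberg adjustment at 0.05. A region missing a peak in any library was not tested, and a called region had to have a peak throughout, so absent peaks are given as counts. The script was tested on simulated data. Counts, widths and figures used Python 3.11.15 with pandas 2.3.3, numpy 2.4.6 and matplotlib 3.10.9. H3K27me3 was given by presence and covered length alone. Same-numbered libraries deviated together with a correlation above 0.1 in every pair for bryostatin against untreated (lowest 0.13 in REH H3K4me2, highest 0.68 in NALM6 H3K4me3), except Raji H3K4me2 (-0.31 to 0.42). The 0.68 is that of replicate 1 of NALM6, with its other scaling. In NALM6, replicates 2 and 3 also correlated across numbers (0.51 and 0.57 for H3K4me3, 0.41 and 0.35 for H3K4me2). Replicate 1 of NALM6 against another number was negative throughout (-0.68 to -0.41). The genes and lists were chosen with earlier results of these data known. All 10 genes are named. A gene of another list could be named only where its start region passed the adjusted p with groups that did not overlap, at most 3 per list and comparison. Not every gene that met this rule is described above. Those left out are PTPN12, PTPN18, PTPN23, PAG1 and JAK2 for Raji against REH, and PTPN18 and PTPRM for NALM6 against REH. The genes of most similar pattern were sought for the gene with the largest range of H3K4me3 start signal between lines, on log2 (signal + 0.1). This start signal is a measure separate from the signal of the joined regions. Alternatives were maximum signal, mean signal per base, no centring, quantile normalization, the upper 0.5 of regions by signal, no trend, the replicate number as a block, and each library left out.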

Additional observations from a re-analysis of the deposited data

Results flagged for a closer look

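The change of H3K4me3 with bryostatin at the UBASH3B start was larger in Raji than in REH by 0.93 on the log2 scale, and the test of that difference over 12 libraries passed its threshold, as given above.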

How the results depend on the processing

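Of 1287 values of these genes' regions under an alternative, 1225 kept their side of the threshold, and 53 lost and 5 gained it. A further 4 turned in sign, counted only where the main or the alternative fit passed the threshold. A turn of sign with neither fit past the threshold stayed among the 1225. The 4, all under mean signal per base, were H3K4me2 differences, namely PTPN2 (-0.21), the downstream PTPN6 region (-0.52) and UBASH3B (0.46) between Raji and REH, and UBASH3B between NALM6 and REH (0.31). Those values divide the same signal by called length, and the cause of the other changes was not tested. Maximum signal gave 51 regions for REH H3K4me2, 0 for Raji H3K4me3, 20 for REH H3K4me3, 277 and 172 for H3K4me2 and H3K4me3 of NALM6 against REH, 1728 for H3K4me3 of Raji against REH, 0 for both tests of a different response in Raji and REH, and 6 non-overlapping sets of whole-gene signal. Mean signal per base gave, in the same order, 1, 0, 0, 261, 91 and 1550, with 2256 for H3K4me2 of Raji against REH and 0 for both tests of a different response. No centring moved the median of all regions by -1.46 and -1.33 (log2) for H3K4me2 and H3K4me3 of NALM6 against REH, where 0 regions then passed, by -0.25 and -0.20 for Raji against REH (1095 regions for H3K4me3), and by 0.21 and 0.25 for the bryostatin change of H3K4me2 and H3K4me3 in Raji, and it gave 44 regions for REH H3K4me3. The upper 0.5 of regions gave 66 for REH H3K4me2, 5 for Raji H3K4me3, 75 for REH H3K4me3, 2254 and 1711 for H3K4me2 and H3K4me3 of Raji against REH, and 283 and 148 for NALM6 against REH, since fewer regions were tested. No trend gave 0 for Raji H3K4me3, and RPKM with no scaling gave 9 sets of whole-gene signal. Under the replicate block the counts were 305 for REH H3K4me2, 132 for Raji H3K4me3, 202 for REH H3K4me3, 1 and 27 for a different response in H3K4me2 and H3K4me3, and 158 for H3K4me3 of NALM6 against REH, where lines share only a number. Beside the values given above, the block changed no other call of the 10 genes. Leaving out 1 library gave 0 to 1 region for Raji H3K4me2, 62 to 344 for REH H3K4me2, 0 to 19 for Raji H3K4me3, 51 to 223 for REH H3K4me3, 201 to 2730 and 84 to 3147 for H3K4me2 and H3K4me3 of NALM6 against REH (2730 and 3147 without untreated replicate 1 of NALM6), 0 to 19 and 0 to 13 for a different response in H3K4me2 and H3K4me3, and 3 to 8 sets of whole-gene signal. Start peaks over the 10 genes numbered 285, and 217 to 283 under other definitions of a start or a peak.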
